A study of Mus musculus with 3530 samples.

Results

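Mouse heat-shock and chaperone genes were followed through 3530 single cells of the medial prefrontal cortex of TRAP2;Ai14 mice. The members were chosen by name alone: the HSP70 and HSP110 genes, the small heat-shock genes, the HSP90 genes, the mitochondrial chaperonin pair Hspd1 and Hspe1, the J-domain genes of classes A, B and C, the TRiC/CCT subunits with Tcp1, and the heat shock factors Hsf1 and Hsf2. In all, 89 of the 23355 rows of the count table met the rule, and none was chosen by its values. They were 25 J-domain genes of class C, 14 HSP70 and HSP110 genes, 12 J-domain genes of class B, 9 TRiC/CCT subunits, 8 small heat-shock genes, 4 J-domain genes of class A, 3 HSP90 genes, 2 chaperonin genes, 2 heat shock factors and 10 pseudogenes. GENCODE vM21 listed all 89 and typed 78 as protein coding.

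In TRAP2;Ai14 mice a tamoxifen-dependent recombinase driven by neuronal activity switches on the tdTomato reporter, so the reporter marks cells that were active in the tamoxifen window. The mice were labelled Fear-Recall (1342 cells), Fear-Only (841 cells), Context-Only (912 cells) or Homecage (435 cells), with 5 animals each, and all of them, Homecage included, carried both alleles. The labels give contextual fear conditioning as the paradigm and no schedule of training, tamoxifen or recall, no age and no sex. Tissue was dissociated with papain and single cells, grouped by plate in the titles, were read by Smart-seq2, a full-length method without molecular identifiers. Animals carry a number from 1 to 5 here called the set. The labels do not say what a shared set number marks, and one further Context-Only animal is written 5b. In sets 2 to 4 the titles also give a gate, pos (1806 cells) or neg (779 cells); 849 cells of sets 1 and 5 carry none, and 96 cells of Homecage 3 carry both names.

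Chaperones bind unfolded or partly folded proteins and help them fold, travel, assemble or be degraded. HSP70 proteins do this in cycles of ATP hydrolysis that J-domain proteins start and HSP110 proteins reset; HSP90 acts later on signalling proteins, TRiC/CCT folds actin and tubulin in a closed chamber, and Hspd1 with Hspe1 does the like in the mitochondrial matrix. Heat and misfolded protein free the transcription factor Hsf1, which binds heat shock elements before genes such as Hspa1a, whereas misfolded protein in the endoplasmic reticulum (ER) raises Hspa5, Hsp90b1 and their partners through other factors. Neurons hold high constitutive levels of Hspa8 and HSP90 and are known for a weak induction of Hspa1a.

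Promoter sequences holding those elements are shown for members known from either response. RefSeq promoter windows on GRCm38.p6, from 250 bases before to 50 after each annotated start, were matched for 65 of the 89 members (84 windows). Capitals mark the matched elements, each sequence is written 5′ to 3′ on the gene's own strand, and the first 2 are the same stretch between the divergent genes Hspd1 and Hspe1 read from each side.
Hspd1 (chr1:55088039-55088096, minus strand): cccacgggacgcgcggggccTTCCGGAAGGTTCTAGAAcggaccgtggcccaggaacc
Hspe1 (chr1:55088039-55088096, plus strand): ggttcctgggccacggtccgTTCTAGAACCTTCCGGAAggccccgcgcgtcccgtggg
Hspa1a (chr17:34972233-34972280, minus strand): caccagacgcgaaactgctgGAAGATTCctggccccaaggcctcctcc
Hsph1 (chr5:149636342-149636389, minus strand): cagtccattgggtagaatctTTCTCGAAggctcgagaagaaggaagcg
Hspa5 (chr2:34772005-34772063, plus strand): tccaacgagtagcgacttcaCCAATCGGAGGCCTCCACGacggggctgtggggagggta
Hsp90b1 (chr10:86705618-86705676, minus strand): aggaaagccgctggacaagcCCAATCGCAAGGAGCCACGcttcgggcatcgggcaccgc
Dnajc3 (chr14:118937807-118937865, plus strand): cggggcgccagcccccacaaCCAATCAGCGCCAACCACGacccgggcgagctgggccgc

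Hspa1b, which neighbours Hspa1a, held the same 48 bases at chr17:34959315-34959362, and the windows of this pair were identical at 296 of 300 bases. The heat shock element was searched on both strands as 3 units (GAANNTTCNNGAA or TTCNNGAANNTTC) and as 2 units (GAANNTTC or TTCNNGAA), so that every match of 3 units also contains matches of 2. The form of 3 units stood in 198 of 32851 windows of all genes (0.603%) and in 6 of the 84 member windows (7.14%), those of Hspd1, Hspe1, Dnajb6 and Hsph1, the last after its start. The form of 2 units stood in 15.1% of all windows and in 20 member windows (23.8%), among them Hspa1a, Hspa1b, Hspb1, Dnaja1, Cct2 and Cct5. The ER stress response element (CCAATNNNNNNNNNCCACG, both strands) stood in 39 windows of all genes (0.119%) and in the 3 member windows of Hspa5, Hsp90b1 and Dnajc3 (3.57%). A match describes letters only and was not tested as a binding site.

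Among all cells the constitutive cytosolic chaperones were read in nearly every neuron and the inducible HSP70 in a minority of them. Reads of Hsp90aa1 were found in 3528 cells (99.9%), of Hspa8 in 99.8%, of Hsp90ab1 in 99.6%, and of Dnaja1, a J-domain partner of Hspa8, in 98.7%. Hspa1a, the heat-inducible HSP70, was read in 982 cells (27.8%, exact 95% binomial interval 26.3 to 29.3%), and in 22.5% of cells once each cell was thinned to 100000 reads. Its near copy Hspa1b was read in 3.37% of cells and Hspb1, the inducible small heat-shock gene, in 30 cells (0.850%). The interval treats cells as independent and leaves out the spread between animals and plates. PCR copies were not removed, as the method has no identifiers. Over the members, 12 were read in over 95% of cells, 53 in over 50% and 16 in under 5%, and each was read in at least 1 cell.

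Between genes only levels per kilobase of exon are comparable. In CPM (reads scaled to the total reads of the sum) per kilobase, averaged over 19 animals, Hsp90ab1 stood at 1359.7, Hspa8 at 727 and Hsp90aa1 at 647, ahead of Cct5 at 162.8, the mitochondrial co-chaperonin Hspe1 at 134.2 and the ER chaperones Hsp90b1 at 116.8 and Hspa5 at 116. Hspa1a lay at 6.12 and Hsf2 at 1.92 CPM per kilobase. Between animals Hspa8 held 3126 ± 520.0 CPM (SD, n = 19), whereas Hspa1a ranged from 6.10 to 37.3 CPM. Several members share sequence with copies, and the counting tool was not given in the sources used here. Of the 31-base words of Hspa1a transcripts, 63.8% also occur in Hspa1b, and 46.7% of those of Hsp90aa1, 38.6% of those of Hspa8 and 46.5% of those of Hspd1 occur in a single pseudogene or copy, so the split of reads within these families is uncertain. Hsph1, Cct5 and Hspb3 shared none.

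Many chaperone genes differed between excitatory and inhibitory neurons. Cells were clustered on variable genes without the members and the reporter, and clusters were called excitatory-like (2356 cells) or inhibitory-like (1174 cells) by the markers of glutamatergic and GABAergic neurons. Reads were summed per animal and class in 17 animals (18 to 368 cells a sum) and compared with edgeR's quasi-likelihood test, with the animal as a block and Benjamini-Hochberg adjustment over all 16104 genes tested. Of all genes tested, 41.4% passed an adjusted p of 0.05 (18.7% higher and 22.7% lower in inhibitory-like neurons; 49% with DESeq2, which called 40 members). Of 76 members tested, 38 passed (50%), 24 higher and 14 lower in inhibitory-like neurons, so the share passing in either direction was near that background. By direction more members passed higher than lower, whereas more of all genes passed lower. This contrast in direction was not tested. The median log2 fold change of the tested members was 0.13, and that of all genes was -0.10. The other 13 members were too low to test: 6 pseudogenes, Hspb1, Hspb7, Hspb9, Hspa12b, Dnajb7, Dnajb13 and Cct6b. In sums of many cells, fewer expressing cells and less RNA per cell cannot be told apart. Genes per cell differed as well. By the subclasses named further on, their median was 5310.5 in Vip, 2472 in unnamed inhibitory and 6435.5 to 6844 in the other inhibitory cells. In the excitatory subclasses it was 6437 to 8157. The class tests did not adjust for genes per cell.

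**Figure D1:**
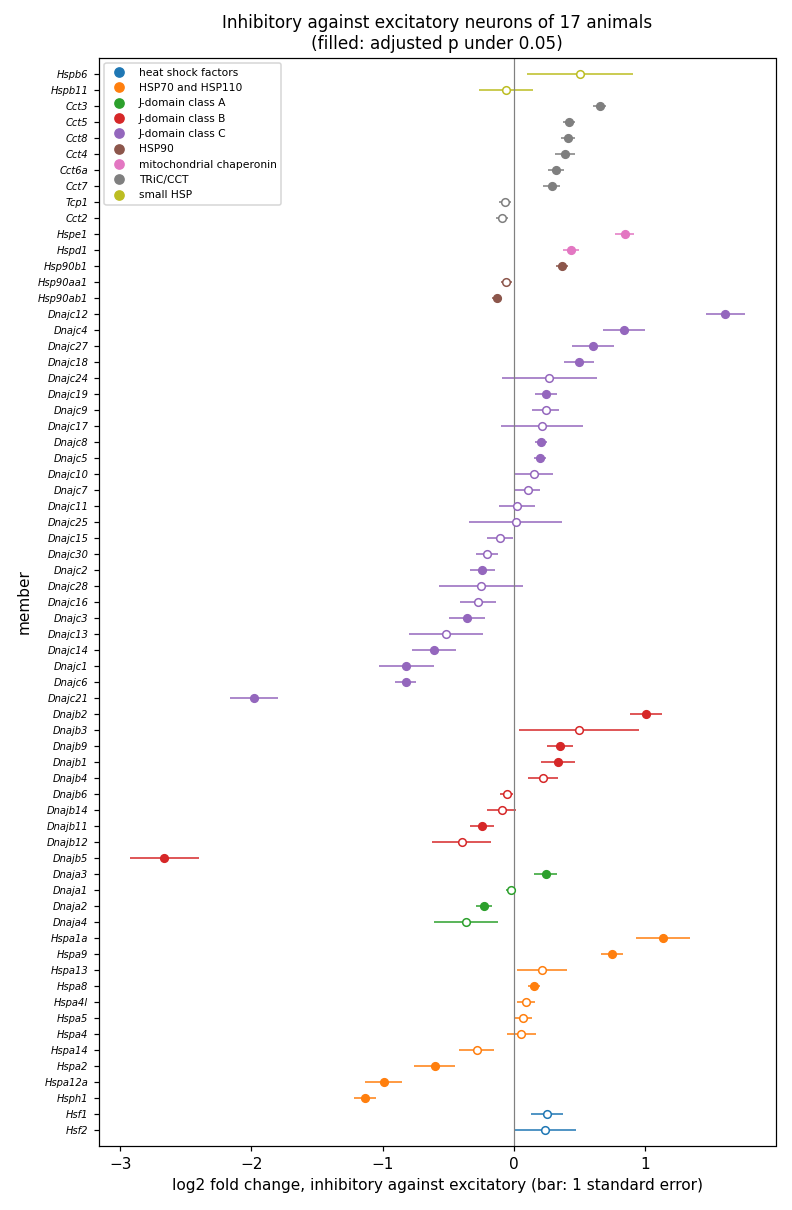
Log2 fold change of each member with a mean log2 CPM over 2, inhibitory-like against excitatory-like neurons, with 1 standard error on each side; colour gives the family and filled points passed an adjusted p of 0.05 (edgeR, animal as block, 17 animals). Dnajc12 stands farthest to the right at 1.61 and Dnajb5 farthest to the left at -2.67, while the TRiC/CCT subunits and the mitochondrial chaperonins that passed all lie on the right.

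Both mitochondrial chaperonin genes and 6 of 8 TRiC/CCT subunits tested were higher in inhibitory-like neurons, beside 18.7% of all genes, and Cct2 (log2 -0.09) and Tcp1 did not pass. Hspe1, the lid of the mitochondrial chamber, stood at lowest 129.7, median 233 and highest 863 CPM in inhibitory-like and at lowest 81.6, median 131 and highest 367 CPM in excitatory-like sums. The ranges overlapped, yet it was higher in inhibitory-like neurons in 17 of 17 animals (log2 fold change 0.85, standard error 0.07, edgeR adjusted p = 4.59e-09). Hspd1, the barrel itself, held 292 ± 107 against 213.99 ± 73.0 CPM (SD, n = 17) and was higher in 16 animals (log2 0.43). Hspa9, the HSP70 of the mitochondrial matrix, held 220.7 ± 81.1 against 128 ± 35.5 CPM and was higher in all 17 (log2 0.75). Among J-domain genes known from mitochondria, Dnaja3 (log2 0.24) and Dnajc19 (0.25) passed higher, and Dnajc11 (0.02), Dnajc15 (-0.10) and Dnajc30 (-0.20, edgeR adjusted p = 0.0528) did not pass. The calls of Dnaja3 and Dnajc19 were lost on leaving out any of 10 and 5 animals, and without the 3 plates of fewest genes per cell described further on (adjusted p = 0.0792 and 0.134).

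Among TRiC/CCT subunits Cct3 differed most. Its sums ran from lowest 162, median 348 and highest 548 CPM in inhibitory-like neurons and from lowest 145.7, median 210.8 and highest 296 CPM in excitatory-like neurons, higher in all 17 animals (log2 0.65, standard error 0.05, edgeR adjusted p = 2.10e-09). Cct5 (log2 0.42) and Cct8 (0.41) were also higher in every animal, followed by Cct4 (0.39), Cct6a (0.32) and Cct7 (0.29). Tcp1, the subunit that gives the complex its name, did not pass and stood at 319 against 333 CPM (log2 -0.07). Of the 8 prefoldin and CCT cofactor genes outside the members, 4 passed higher (Vbp1 0.65, Pdcl3 0.56, Pfdn4 0.54 and Pfdn5 0.24 on the log2 scale) and Txndc9 passed lower (-0.24). Of all genes 18.7% passed higher and 22.7% lower.

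In the HSP70 and HSP110 family 3 genes passed higher and 3 lower of 13 tested, beside 18.7% and 22.7% of all genes. Hspa1a was among the higher ones, at lowest 6.68, median 25.5 and highest 62.8 CPM in inhibitory-like and lowest 4.85, median 10.7 and highest 20.9 CPM in excitatory-like sums. The groups overlapped and 15 of 17 animals were higher in inhibitory-like neurons (log2 1.14, standard error 0.21, edgeR adjusted p = 0.000146). The share of cells with an Hspa1a read did not follow this level, at 29.0% of excitatory-like and 25.4% of inhibitory-like cells (22.6% and 22.2% after thinning). Without the 3 plates of fewest genes per cell, described further on, the log2 change of Hspa1a was 0.88 with an adjusted p of 0.0579, which ends its call. Hspa8, the constitutive HSP70, differed little, with 3343 against 2992 CPM (log2 0.15, adjusted p = 0.00834).

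Hsph1, the HSP110 that exchanges nucleotide on HSP70, went the other way. It held lowest 49.9, median 123.1 and highest 269 CPM in inhibitory-like neurons, and lowest 178.2, median 275 and highest 524 CPM in excitatory-like neurons. It was lower in inhibitory-like neurons in all 17 animals (log2 -1.14, standard error 0.09, edgeR adjusted p = 1.28e-09). Hspa12a, a distant relative of HSP70 (log2 -0.99), and Hspa2, an HSP70 best known from testis (log2 -0.60), were lower as well. Hspa5, the HSP70 of the ER, did not pass (480.3 against 457 CPM, log2 0.07).

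**Figure D2:**
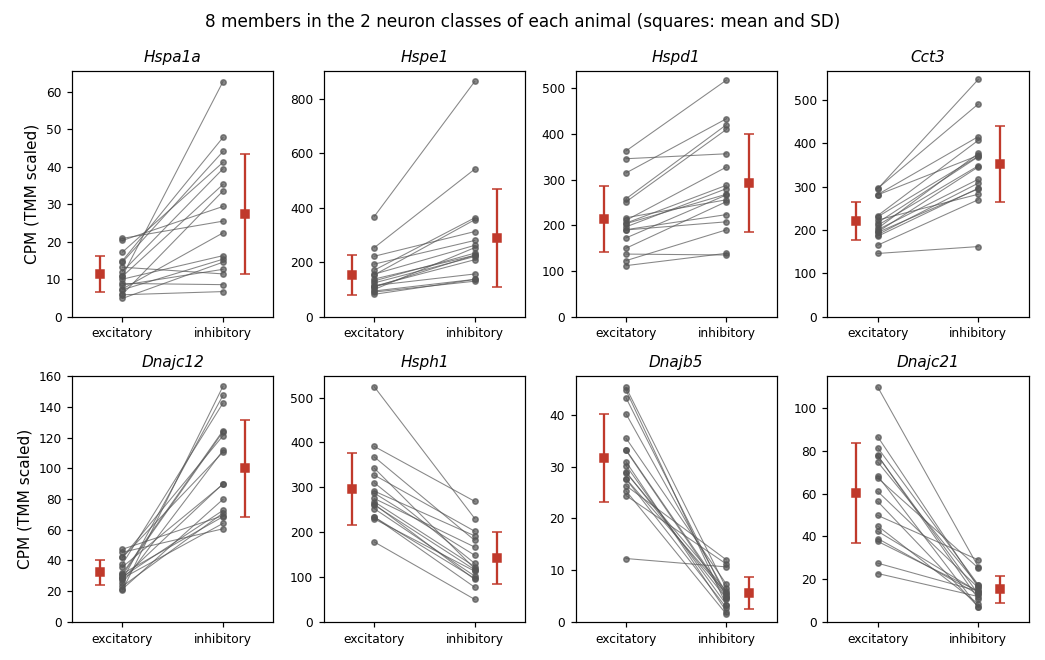
CPM of 8 members in excitatory-like and inhibitory-like sums of 17 animals, each line joining the classes of 1 animal; squares and bars are means and SD. Lines rise towards inhibitory-like neurons for Hspe1, Cct3 and Dnajc12 in all 17 animals and fall for Hsph1, Dnajb5 and Dnajc21 in all 17.

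The J-domain genes, which choose the clients and sites of HSP70, differed in both directions. Dnajc12, a partner of the aromatic amino acid hydroxylases, stood at lowest 60.6, median 90.0 and highest 153.6 CPM in inhibitory-like and at lowest 20.6, median 30.6 and highest 47.3 CPM in excitatory-like neurons. The groups did not overlap (log2 1.61, standard error 0.15, edgeR adjusted p = 2.29e-08). Dnajb2, a neuronal J-domain protein that binds ubiquitin, was higher in all 17 animals (80.5 ± 27.7 against 39.2 ± 11.1 CPM, log2 1.01), and Dnajc4 (log2 0.84), Dnajc27 (0.61), Dnajc18 (0.50) and the ER gene Dnajb9 (0.35) were higher too. Dnajb5, a close relative of Dnajb1, stood at lowest 1.45, median 5.03 and highest 11.98 CPM in inhibitory-like neurons against lowest 12.3, median 30.2 and highest 45.4 CPM in excitatory-like neurons, again without overlap (log2 -2.67, standard error 0.26, edgeR adjusted p = 5.87e-08). It was read in 71.6% of excitatory-like and 13.9% of inhibitory-like cells.

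Dnajc21, which acts in ribosome assembly, was lower in inhibitory-like neurons in all 17 animals (15.3 ± 6.32 against 60.3 ± 23.3 CPM, log2 -1.98), as was Dnajc6, the auxilin that uncoats clathrin vesicles (log2 -0.82). Dnajc1 (-0.82), Dnajc14 (-0.61) and Dnaja2 (-0.23) also passed lower. Dnajc5, the cysteine string protein of synaptic vesicles, and the splicing-associated Dnajc8 passed higher by little (log2 0.20 and 0.21). The heat-inducible Dnajb1 passed at 298.9 ± 174.1 against 225 ± 80.8 CPM (log2 0.34, adjusted p = 0.0386), in 12 of 17 animals, and its call was lost when any one of 10 animals was left out. The calls of Dnajc2, Dnajc3 and Dnajb11 (log2 -0.24, -0.36 and -0.24) were lost on leaving out 12, 12 and 5 animals in turn. Dnaja1 did not pass (log2 -0.02). Without the animal block 24 members passed, 23 of them among the 38, and the calls of Cct7, Dnaja2, Dnaja3, Dnajb1, Dnajb9, Dnajb11, Dnajc2, Dnajc3, Dnajc5, Dnajc8, Dnajc14, Dnajc19, Hsp90ab1, Hspa8 and Hspb3 were lost. The share of all genes passing without the block is not given here.

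The 3 HSP90 genes had differences of either sign. Hsp90b1, the HSP90 of the ER, was higher in inhibitory-like neurons (539.6 ± 84.8 against 418 ± 57.2 CPM, log2 0.37, 16 of 17 animals), the cytosolic Hsp90ab1 was slightly lower (3809 against 4131 CPM, log2 -0.13), and the inducible cytosolic Hsp90aa1 did not pass (log2 -0.06). Of 5 small heat-shock genes tested 2 passed, beside 41.4% of all genes. Hspb2 was higher (4.04 against 0.281 CPM) and Hspb3, its partner in muscle, lower (1.36 against 5.34 CPM). Both have sums at 0, so their fitted log2 changes (4.53 and -4.10) depend on the prior count, and Hspb3 had a log2 change of -1.98 with an edgeR adjusted p of 0.0578 without the animal block. Of the 31-base words of Hspb2 transcripts, 26.7% also occur in Cryab, so the split of reads between them is uncertain. Neither heat shock factor passed (Hsf1 log2 0.25, adjusted p = 0.114; Hsf2 0.24, 0.441), nor did Hspa1b, at under 2 CPM in every sum (adjusted p = 0.434).

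Of 25 co-chaperones and Hsf1 targets outside the members, 11 passed higher and 3 lower in inhibitory-like neurons. Of all genes 18.7% passed higher and 22.7% lower. The HSP90 co-chaperone Fkbp4 (log2 0.89), the HSP70 partner St13 (0.64), the adaptor Stip1 (0.42) and Ptges3 (0.35) were higher, and Bag1 (-0.27), Hsbp1 (-0.27) and Cdc37 (-0.17) lower. Of 15 tested ER stress genes outside the members, Ddit3 (1.96), Atf4 (1.44), Herpud1 (0.77) and Canx (0.43) passed higher and Creld2 lower (-0.30). Of the 8 members known from ER stress 3 were higher and 2 lower, and of 13 tested members known from heat 5 were higher and 2 lower. These small counts stand beside 41.4% of all genes passing in either direction, and a difference from that share was not tested. Markers of other cells were low in both classes: summed endothelial markers lay at 0.260 CPM in excitatory-like and 0.223 in inhibitory-like cells, oligodendrocyte precursor markers at 1.25 and 2.06, mural markers at 13.7 and 6.87, astrocyte markers at 16.3 and 14.9, microglial markers at 37.3 and 32.6, and oligodendrocyte markers, mostly Mbp, at 162 and 131.8. Their part in the member differences was not tested.

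Within the classes, clusters were named by their markers as 5 excitatory and 5 inhibitory subclasses, each to be read as that type in marker expression only. Values here are animal means over animals with at least 5 cells of the subclass, as a description without a test. Of 76 members, 47 had their highest level in an inhibitory subclass (46 by the mean over cells and 44 after thinning). The same count was not made over all genes, so it is not read as a trait of chaperone genes. Hspa1a was highest in the Pvalb-like (40.7 ± 30.96 CPM, SD, n = 5 animals) and Sst-like subclasses (37.99 ± 26.2, n = 11). It then ran through near-projecting (21.7), neurogliaform (21.1), layer 6 intratelencephalic (18.999), Vip (17.7), upper layer (16.5), Sncg Cnr1 (13.5) and middle layer (9.11) to layer 6 corticothalamic neurons (8.16 ± 3.24, n = 17). The animals' ranges overlapped between each pair of neighbours in this order, and between its first and last.

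Levels also varied between the subclasses of a class. Dnajb5 stood at 48.3 ± 26.2 CPM in middle layer and 45.01 in upper layer neurons, at 32.3 and 26.4 in the layer 6 groups, at 14.1 in near-projecting neurons, at 8.85 in Sst-like neurons and at 0.5678 ± 1.17 in Sncg Cnr1-like neurons, whose animals did not overlap those of the middle layer; after thinning and in CPM of the summed cells the upper layer stood above the middle layer. Dnajc21 was also highest in middle layer neurons (132.4 ± 42.6 CPM) and lowest in the Sncg Cnr1-like subclass (10.8). Dnajc12 was highest in Sst-like (137) and Pvalb-like (126) and lowest in middle layer neurons (24.3), without overlap between the first and the last. Hsph1 was even over the excitatory subclasses (293.9 to 321 CPM) and lay between 103.5 to 207.1 over the inhibitory ones.

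Other members divided the excitatory neurons themselves. Dnajb1 stood at 479 ± 126.7 CPM in upper layer neurons (310.2 to 680.4, n = 10) and at 203.1 ± 58.5 in middle layer neurons (111 to 308, n = 17), with no animal of one in the range of the other. Hspa2 was at 80.7 CPM in upper layer and 74.4 in layer 6 intratelencephalic neurons but at 2.51 in near-projecting neurons, again without overlap of the highest and lowest. Near-projecting neurons were in turn the highest for Dnaja2 (399), for Dnajc9 (161), a histone co-chaperone, and for Hspa12a (94.1, next to 93.3 in upper layer and 8.98 in Sncg Cnr1-like neurons). Hspa4l, an HSP110, was highest there by animal means (283.9, Pvalb-like 231) but in Pvalb-like neurons by the mean over cells, after thinning and in summed cells. Hspa5 was highest in upper layer neurons (654 ± 196.1 CPM, against 437 in the middle layer). Hspb3 was highest in middle layer (15.6) and Sst-like neurons (10.2) and was listed at 0 in neurogliaform neurons, Hspb8 was highest in Sncg Cnr1-like neurons (12.1), and Hspb6 in Sst-like (27.8) or, by the mean over cells and after thinning, in Sncg Cnr1-like neurons. Hspa8 and Hsp90aa1 spanned only 1.23 and 1.25 times between the highest and lowest subclass.

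The TRAP2 gate asks whether chaperone genes differ between pos and neg cells of the reporter line; the labels do not define the 2 names further. Sums of pos and neg cells of 8 animals (55 to 329 cells a sum) were compared with the animal as a block. Of 17752 genes 0.287% passed (10.6% at an unadjusted p under 0.05, 3.63% with DESeq2), and of 79 members tested 0 passed with edgeR, 11 had an unadjusted p under 0.05 and 1 passed with DESeq2. The members lay evenly about 0, 39 above and 40 below, with a median log2 of -0.01 beside 0.02 for all genes. The smallest p was that of Dnajc4, with lowest 27.4, median 46.4 and highest 109.3 CPM in pos and lowest 19.1, median 26.3 and highest 70.03 CPM in neg sums. The groups overlapped, with the pos value above the neg value in 8 of 8 animals (log2 0.61, standard error 0.12, edgeR adjusted p = 0.0809, DESeq2 adjusted p = 0.000548). On the 3 plates of fewest genes per cell, all of pos cells and described further on, Dnajc4 stood at 50.3 to 89.1 CPM. The other plates held it at 13.1 to 63.5 CPM. Its difference without those 3 plates is not given here.

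By role, all 3 HSP90 genes lay above 0 in pos neurons and 7 of 8 TRiC/CCT subunits below it, none past the threshold. A difference from the signs of all genes was not tested, and animals differed. Cct4 was lower in pos sums in Fear-Recall 2 and Homecage 2 (85.5 against 264.5 CPM in the latter) and higher in the other animals. In pos sums Hsp90aa1 held 4728 CPM in Homecage 2, 4030 in Context-Only 2 and 1809 to 2386 in the other animals. The pos cells of Homecage 2 and Context-Only 2 are on plates of few genes, described further on. Hsp90aa1 stood at 2696 ± 1075 in pos and 2106 ± 428 CPM in neg sums (7 of 8 animals, log2 0.29, adjusted p = 0.511 in edgeR), Hsp90b1 at 519 and 414 (log2 0.30) and Hsp90ab1 at 3881 and 3486 (log2 0.15). Hspa1a was level, at 16.8 ± 8.08 and 16.4 ± 9.80 CPM, with 4 of 8 animals on each side. The other members of smallest p were Hspe1 (log2 0.55, adjusted p = 0.309), Dnajc14 (-0.57, 0.322) and Hsf1 (-0.45, 0.329). Hsf1 held 23.2 ± 9.24 CPM in pos and 30.9 ± 8.79 in neg sums and was lower in pos cells in 7 of 8 animals. On the plates of few genes, all of pos cells, Hsf1 stood at 8.42 to 11.9 CPM. The other plates held it at 12.4 to 49.03 CPM. Of the other core chaperones, none past the threshold, the values were Hspa5 (log2 -0.08), Hspa8 (-0.04), Hsph1 (-0.08), Hspd1 (0.08), Dnaja1 (0.09), Dnajb1 (0.01), Dnajb5 (-0.03), Tcp1 (-0.08), Hsf2 (0.19). For comparison, 1 of 23 immediate early genes passed, Fosl2 (log2 1.38, edgeR adjusted p = 0.0320).

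Pos and neg cells also differed in make-up. The inhibitory-like share was 39.3 ± 5.04% in pos and 19.7 ± 4.28% in neg (SD, n = 8), median genes per cell were 3902 to 7287 and 5856.5 to 8602, and the gates were on separate plates except in Context-Only 4. Within excitatory-like neurons alone 0.0357% of 16816 genes passed (7.09% at an unadjusted p under 0.05, 1.4% with DESeq2) and again 0 of 76 members with edgeR (8 at an unadjusted p under 0.05, 1 with DESeq2). The smallest p there was that of Dnajc21, at lowest 51.1, median 83.7 and highest 95.6 CPM in pos and lowest 28.5, median 59.3 and highest 79.4 CPM in neg sums (log2 0.55, standard error 0.14, 7 of 8 animals, edgeR adjusted p = 0.416; DESeq2 0.0424). Dnajc4 stayed above its neg value in 8 of 8 animals (log2 0.46, adjusted p = 0.457 in edgeR), followed by Hspb3 (1.08) and Dnajc1 (0.49). Hspe1, at 0.55 in all neurons, was at 0.32 here, and Hspa1a at -0.24. In all neurons, but without the 3 plates of fewest genes per cell, Hspe1 was at 0.19.

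The labels name conditions with and without fear training and recall, and their pos cells were compared in 8 animals (Fear-Recall 3, Fear-Only 2, Context-Only 3). No gene of 20381 passed in any of the 3 contrasts with edgeR (0%). DESeq2 called 0.123%, 0.0343% and 0.0883% of all genes and no member. At an unadjusted p under 0.05 stood 3.38% of all genes and 2 of 83 members for Fear-Recall against Context-Only, 1.88% and 0 members for Fear-Recall against Fear-Only, and 2.52% and 0 members for Fear-Only against Context-Only. The contrasts share animals, so their values stand side by side without a count of agreement. With the set number as replicate block these counts were 12, 0 and 1 members, beside 9.51%, 2.83% and 4.43% of all genes, again with no gene past the threshold; the smallest p for Fear-Recall against Context-Only was then that of Dnajc4 (log2 -0.68, edgeR adjusted p = 0.521). Without the block the 2 members were Dnajb5 and Dnajb3, the latter a low J-domain gene best known from testis.

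Dnajb5 held 30.6, 33.0 and 36.7 CPM in the Fear-Recall animals, 24.2 and 22.3 in the Fear-Only animals and 21.9, 21.6 and 24.02 in the Context-Only animals. The Fear-Recall values lay above all others (log2 0.57 against Context-Only, standard error 0.23, edgeR p = 0.0327, adjusted p = 0.97; 0.52 against Fear-Only, adjusted p = 1). In inhibitory-like neurons alone both differences turned negative (-0.99 and -0.58). Dnajb3 held 2.23, 2.77 and 1.10 CPM in Fear-Recall and 8.29, 4.33 and 3.26 in Context-Only animals, without overlap (log2 -1.38, adjusted p = 0.97 in edgeR), and was at -1.23 against Fear-Only.

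The HSP90 genes had lower means in Fear-Recall than in Context-Only animals without passing. Hsp90ab1 was read at 3021, 3531 and 3122 CPM in Fear-Recall and 4381, 4034 and 3935 in Context-Only animals, which did not overlap (log2 -0.35, edgeR adjusted p = 0.97), Hsp90b1 was at 411 against 516 (log2 -0.33) and Hsp90aa1 at -0.56. In Context-Only 2, whose pos cells are all on a plate of few genes described further on, Hsp90aa1 held 4029.7 CPM, beside 2382 and 1917 in the other Context-Only animals, and without those plates its difference was -0.33 (Hsp90ab1 -0.32, Hsp90b1 -0.29). Against Fear-Only the 3 genes were at -0.23, -0.29 and -0.26. Hspe1 was at -0.92, -0.31 and -0.61 in Fear-Recall against Context-Only, Fear-Recall against Fear-Only and Fear-Only against Context-Only, and without those plates at -0.41, -0.66 and 0.25, so that the last changed sign. In the same order Hspa8 was at -0.01, -0.08 and 0.07, Hspd1 at 0.20, 0.18 and 0.02, Dnaja1 at -0.09, -0.04 and -0.06, Dnajb1 at -0.28, -0.18 and -0.10, Tcp1 at 0.07, 0.06 and 0.00, and Hsf2 at 0.21, -0.43 and 0.64. Hspa1a was at log2 -0.23, 0.45 and -0.68 in the 3 contrasts, Hspa5 at 0.15, 0.28 and -0.13, and Hsf1 at 0.46, 0.34 and 0.12. The remaining members of smallest p were the matrix HSP70 Hspa9 (0.59) and Dnajc30 (-0.59) against Context-Only, Dnajc10 (0.79) and Hsph1 (0.63) against Fear-Only, and Dnajc27 (-1.04), Hsph1 (-0.57), Dnajc10 (-0.70) and Dnajc16 (-0.68) for Fear-Only against Context-Only.

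Against Homecage, all cells of 19 animals were summed (17 to 521 cells; Fear-Recall 5, Fear-Only 5, Context-Only 5, Homecage 4), which mixes gates in unequal parts. Again no gene of 19698 passed with edgeR (0%), and DESeq2 called 0.442%, 0.467% and 0.371% of all genes in Fear-Recall, Fear-Only and Context-Only and no member. The unadjusted p was under 0.05 for 8.86% of all genes and 10 of 81 members in Fear-Recall, for 6.75% and 6 in Fear-Only, and for 4.89% and 0 in Context-Only. All 3 contrasts share the Homecage animals.

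Dnaja3, a J-domain protein of the mitochondrial matrix, had the smallest p in Fear-Recall. It was read at 95.3, 96.1, 107, 90.7 and 86.9 CPM in Fear-Recall, 109.4, 59.5, 102, 117.8 and 70.7 in Fear-Only, 58.6, 71.8, 89.3, 98.5 and 59.5 in Context-Only and 71.0, 48.4, 31.96 and 81.2 in Homecage animals. Fear-Recall and Homecage did not overlap (log2 0.71, standard error 0.26, edgeR adjusted p = 0.558; 0.66 for Fear-Only, which in inhibitory-like neurons alone was -0.05). Next in Fear-Recall came Hsp90b1 (413 against 539 CPM, log2 -0.38), Dnajc19 (78.5 against 155.9, log2 -0.99) and Hsf1 (29.6 against 18.3, log2 0.69), each with an adjusted p of 0.558 in edgeR and none past the threshold.

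Hspa1a itself held 19.9, 9.74, 24.1, 13.1 and 6.10 CPM in Fear-Recall, 37.3, 8.87, 12.2, 28.6 and 12.6 in Fear-Only, 23.4, 23.5, 7.57, 16.1 and 9.83 in Context-Only and 19.2, 27.6, 20.1 and 25.5 in Homecage animals. The 4 groups overlapped (log2 -0.66, -0.22 and -0.52 against Homecage, smallest edgeR adjusted p = 0.64). Hsp90aa1 was at -0.59, -0.42 and -0.11, Hspa8 at 0.22, 0.24 and 0.20, and Hsph1 at 0.50, 0.48 and 0.30 on the log2 scale. Fear-Only had its smallest p in the small heat-shock gene Hspb6 (7.73 against 15.9 CPM, log2 -1.03) and in Dnajc11, a mitochondrial outer membrane J-domain gene (0.61). Context-Only had Dnajc21 (0.57, and -0.09 in inhibitory-like neurons alone), Dnajb11 (0.35) and Cct6a (0.30). In Fear-Recall, Fear-Only and Context-Only against Homecage Hspa5 was at 0.23, 0.21 and 0.33, Hspd1 at 0.32, 0.19 and 0.43, Hspe1 at -0.77, -0.72 and -0.05, Hsp90ab1 at -0.40, -0.27 and -0.04, Dnaja1 at -0.04, -0.09 and 0.10, Dnajb1 at -0.36, -0.25 and 0.02, Dnajb5 at 0.27, 0.17 and 0.01, and Tcp1 at 0.09, 0.11 and 0.15, none past the threshold. Hspa1b, at a mean of 0.599 CPM over all animals, ranged up to 6.22 CPM. The plates of few genes, 1 of them of Homecage 2, held Hspe1 at 373 to 510.4 CPM and the others 97.2 to 295. For Hsp90aa1 these ranges were 2735 to 4012 and 1500.2 to 3494 CPM. Values of the Homecage contrasts without those plates are not given here.

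**Figure D3:**
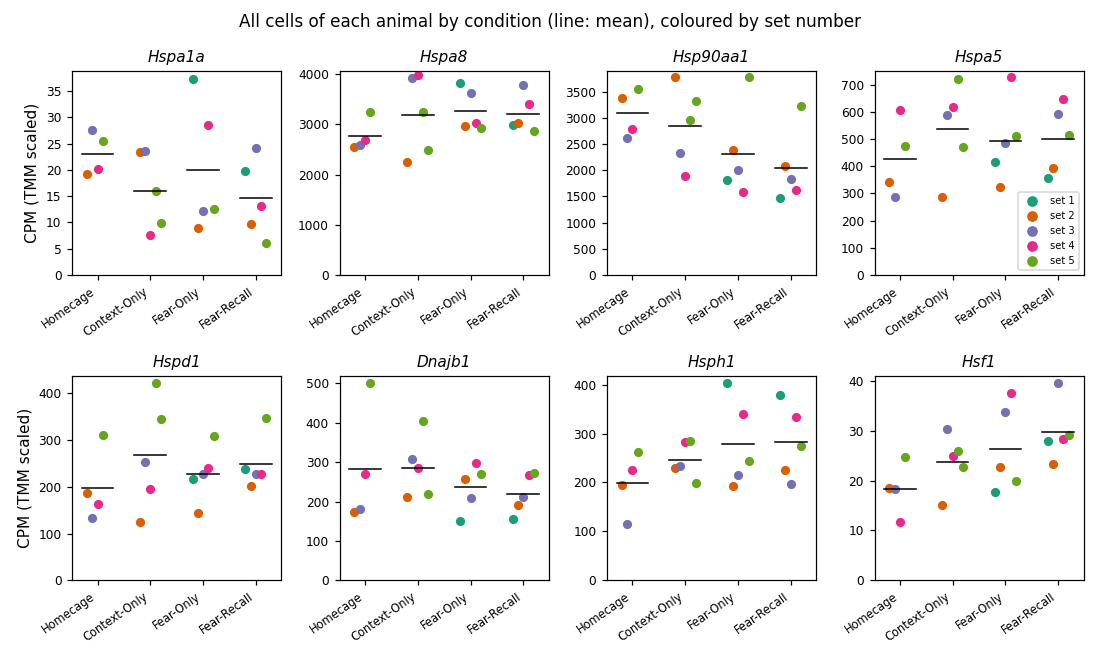
CPM of 8 members in the all-cell sums of 19 animals by condition, coloured by set number, with a line at each condition's mean. The conditions overlap in each panel, while animals of set 5 stand high for Hspd1 and Hsp90aa1.

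Members also differed between the set numbers of the animals. Among sets 1 to 5, 33 of 81 members differed (40.7%), beside 23.2% of all genes tested (edgeR, adjusted p of 0.05, all-cell sums, 19 animals; 32.9% with DESeq2). Of those 33, 10 were highest in set 1, 7 in set 2, 3 in set 3, 3 in set 4 and 10 in set 5. Sets differ in gating (2 to 4 gated, 1 and 5 not), in cells per animal and in genes per cell, and these cannot be told apart from the set. The call of 33 became 20 without the 3 plates of fewest genes per cell, and all 20 were among the 33. In inhibitory-like neurons alone 12 members passed, and 24 in excitatory-like neurons alone. The shares of all genes passing under these settings are not given here. The changes in count are therefore not read as a result about the members.

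Hsp90aa1, Hsp90ab1 and Hspd1 had their highest mean in set 5. Hsp90aa1 averaged 1638, 2899.8, 2193, 1972 and 3363 CPM in sets 1 to 5 (edgeR adjusted p = 0.00325), and Hsp90ab1 2989, 3696, 3877, 3788 and 5211 (0.00639). Hspd1 stood at 309 to 422 CPM in the 5 animals of set 5 and at means of 165 to 226.9 in the others (0.00527). Cct5, Cct7, Cct8, Dnaja1, Dnajb6 and Dnajb11 passed with their highest mean in set 5 as well, but the calls of Cct8, Dnaja1, Dnajb6 and Cct7 were lost on leaving out any of 14, 5, 3 and 1 animals (for Cct7 Fear-Recall 5). After thinning, Cct8 and Dnaja1 had adjusted p-values of 0.0632 and 0.08 in edgeR, and Dnaja1 did not pass in either class alone (0.0513 excitatory-like, 0.091 inhibitory-like). Dnajc3, an ER J-domain gene, went from 29.5 in set 1 to 114.6 CPM in set 5. Hspa5, its ER partner, was instead highest in set 4 (649.9 against 336 in set 2).

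Other members had their highest mean in set 2. Hspb11, a small heat-shock gene by name that works in ciliary transport, averaged 49.8 CPM in set 2 and 10.1 to 15.5 in the other sets (edgeR adjusted p = 0.000362). Dnajc15 (183.03 against 56.7 to 88.4), Dnajc19 (192.6 against 71.6 to 95.8), both of the mitochondrial import motor, Hspe1 (340.1 against 122 to 199.7), Dnajc8 and Dnajc4 did the same. Hspd1 (165) and Hspa9 (118.3) instead had their lowest mean in set 2. Set 1 was highest for Hsph1 (391), Hspa9 (258.2) and Hspa13 (44.4, against 12.7 in set 5), and set 3 for Hsf2 (28.4, against 9.21 in set 5). The calls of Hspa9 and Hsph1 were lost on leaving out any of 3 and 2 animals, Fear-Only 1 of set 1 among them for both. Not past the threshold were Hspa8 (adjusted p = 0.357 in edgeR), Hspa1a (0.257), Hsf1 (0.368), Dnajb1 (0.0598) and Hsp90b1 (0.875). Of non-member lists, 6 of 8 prefoldin and CCT cofactor genes, 12 of 25 co-chaperones and 6 of 23 immediate early genes passed, beside 23.2% of all genes.

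In set 2, 3 plates of pos cells had few genes per cell: Context-Only (145 cells, median 4490 genes), Fear-Recall (82 cells, 4689.5) and Homecage (85 cells, 3902). These plates held Hspa8 at 1428 to 2026 CPM, where the other 31 plates of at least 10 cells held 2200.2 to 4205, and Hspa5 at 200.2 to 249.6 against 243.01 to 796. Hsf1 was at 8.42 to 11.9 against 12.4 to 49.03 CPM. In the opposite direction Hspe1 was at 373 to 510.4 against 97.2 to 295, Dnajc19 at 229.3 to 305 against 52.2 to 186, and Hsp90aa1 at 2735 to 4012 against 1500.2 to 3494. These plates read low for Hspa8 and Hsf1 and high for Hspe1 and Dnajc19 with no overlap, while Hspa5 and Hsp90aa1 overlapped. Within excitatory-like neurons alone Hspe1 was 264.05 to 361 against 93.02 to 274.2 and Hspa8 1497 to 2219 against 2136 to 4219. Without these plates 13 set calls were lost, those of Cct8, Dnaja4, Dnajb2, Dnajb11, Dnajb14, Dnajc4, Dnajc7, Dnajc8, Dnajc19, Dnajc21, Hsf2, Hspa5 and Hspe1 (edgeR adjusted p from 0.0552 to 0.257).

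**Figure D4:**
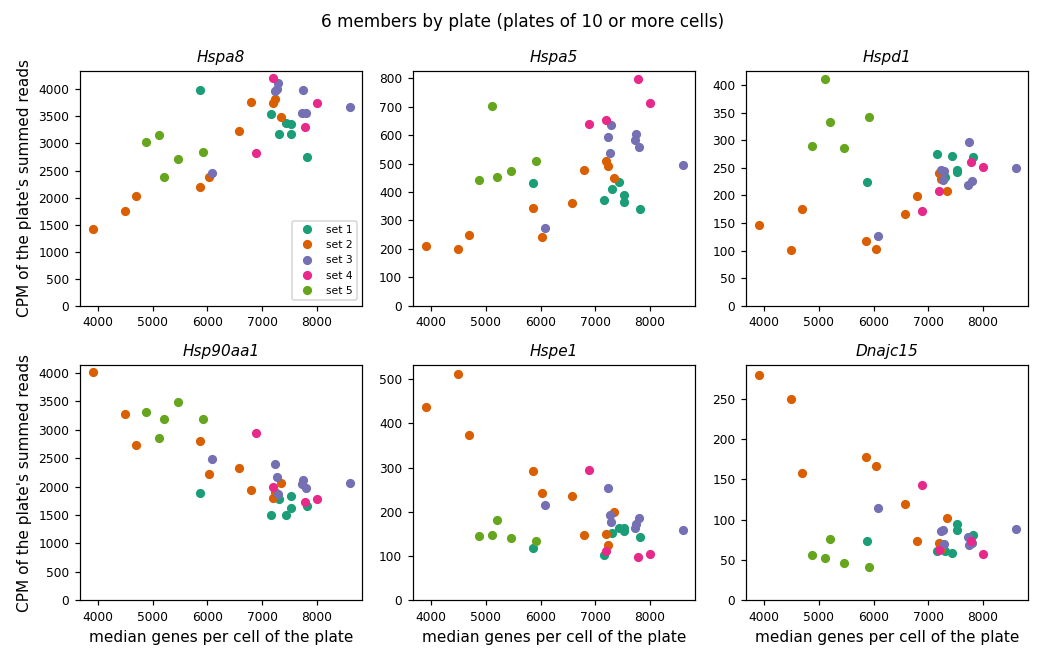
CPM of Hspa8, Hspa5, Hspd1, Hsp90aa1, Hspe1 and Dnajc15 in 34 plates of at least 10 cells against the plate's median genes per cell, coloured by set. The 3 plates of fewest genes, at the left, stand below all others for Hspa8 and above all others for Hspe1.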

How the data were processed

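Whole-number counts per gene and cell were deposited by the authors, 23355 rows including the reporter, which was left out (23354). The submitters' processing notes list Bowtie 0.12.2, mm8 and mm10 without roles, and the counting tool was not given in the sources used here. Cells held 100002 to 6840943 reads (median 813078) and 527 to 10838 genes; no 2 cells were identical, no cell was filtered and, each sample being 1 cell by its label, no doublet caller was run.

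Cells were scaled, logged and clustered in scanpy 1.11.5 (2000 variable genes without members and reporter, 30 principal components, 15 neighbours, Leiden 1.0 through leidenalg 0.10.2), giving 22 clusters named from markers. Clusters without a clear name (331 excitatory and 129 inhibitory cells, the latter 80.6% from set 2 with a median of 2472 genes) stayed unnamed. Subclass and plate CPM are plain; CPM of tested sums are TMM-scaled.

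Sums over the raw reads of at least 10 cells were taken for each animal, each gate and each class; Homecage 1, with 1 cell, gave no sum. Sums held 17831821 to 463123041 reads for all cells, 109767801 to 277685602 for pos cells, 34330142 to 277685602 for the gates and 8604380 to 320947734 for the classes. Tests used edgeR 4.0.16 in R 4.3.3 (TMM, filterByExpr with a minimum count of 10 and total of 15, quasi-likelihood F test), with Benjamini-Hochberg adjustment over all genes at 0.05. They recovered known changes in simulated data that held no effect of animal, set or plate. That does not show how they perform where such effects exist, or on changes smaller than those planted. Replicates are animals, and the labels say nothing of litters or cohorts. The gate and class tests had the animal as a block, so their p-values measure only the spread of within-animal differences over these animals. P-values of the condition and set tests measure only the spread between these animals, and the main condition tests had no set term. Alternatives were DESeq2 1.42.0, RLE factors, no filter, no block or a set block, leaving out each animal, low-gene clusters or plates, one class only, and thinning each cell to 100000 reads. Set numbers pair the animals: deviations from the condition mean correlated over 0.1 in 28 of 28 pairs of the same set (0.263 to 0.793; median of different sets -0.20) and in 7 of 7 pairs of pos sums.

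Text names 17 core members in each section, then the members past the threshold (up to 12 per direction by fold, else the 4 of smallest p), and others singled out after their values were seen. The members and lists were chosen with earlier results of these data known. Promoter sequences are from RefSeq (GRCm38.p6); gene types and exon lengths from GENCODE vM21.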

Additional observations from a re-analysis of the deposited data

Results flagged for a closer look

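Of 83 groups of 4 to 10 animals examined for core members, 9 held an animal far from the rest by the ratio of its gap to the range. The cut-off is made for about 1 in 20 independent groups of normal values. These groups share animals and some lie near 0, so the 9 cannot be set against that rate. In the gate comparison Homecage 2 stood apart, with a log2 ratio of pos to neg of 1.25 for Hsp90aa1 (the other 7 animals from -0.05 to 0.39) and of 1.04 for Hsp90b1 (-0.03 to 0.40). Its pos plate is the one of 3902 median genes per cell, and the part of that in these ratios was not tested. Fear-Only 5 held 5466.0 CPM of Hsp90ab1, the other Fear-Only animals at most 3704, and Fear-Recall 5 held 346 CPM of Hspd1, the others at most 238, both in the set where these genes were highest. Dnajb5, the J-domain gene of excitatory-like neurons, was at 31.7 CPM in Context-Only 5b (others 20.7 to 22.8) and at 48.1 CPM in Fear-Only 4 (others 16.5 to 25.5). Hspb1 was at 0.942 CPM in Fear-Only 5 (others up to 0.0593), at 0.698 CPM in Fear-Recall 5 (others up to 0.198) and at 0.0964 CPM in Homecage 2 (others at 0), levels that rest on 30 cells with a read in all.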

How the results depend on the processing

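Counts of members in the class and set tests under other settings stand here without the share of all genes passing. A change in these counts is therefore not read as a result about the members. Between inhibitory-like and excitatory-like neurons 38 members passed. Leaving out 1 animal gave 33 to 39, other settings 37 to 43, and no replicate block 24, of which 23 were among the 38. Among sets 33 passed; leaving out 1 animal gave 23 (without Fear-Only 1) to 38, excitatory-like neurons alone 24, inhibitory-like neurons alone 12 (11 of them among the 33), and dropping the plates of fewest genes 20. With DESeq2 1 member passed in the gate comparison and 1 in its excitatory-like form; all other settings, animals left out included, gave 0 there and for the condition contrasts. The set number as replicate block left 0 members called in each condition contrast and so changed no call; the smallest adjusted p was 0.144 for Dnajc19 in Fear-Recall against Homecage (log2 -1.004). Under that block 19, 13 and 3 members had an unadjusted p under 0.05 in Fear-Recall, Fear-Only and Context-Only against Homecage, beside 14%, 10.2% and 6.4% of all genes. In inhibitory-like neurons alone 4 named differences that had not passed changed sign: Dnajb5 in Fear-Recall against Context-Only (-0.99) and Fear-Only (-0.58), Dnaja3 in Fear-Only (-0.0489) and Dnajc21 in Context-Only (-0.0873) against Homecage; the cause was not tested. Alternatives were computed for the counts, for each member past the threshold in the class and set tests and for the 4 of smallest p elsewhere. Of 770 values of core members that had not passed, computed under 7 settings, 81 changed sign (median main log2 of 0.0511 in size) and 2 passed, both in the class test: Hsf1 after thinning (0.40, edgeR adjusted p = 0.0226) and Hsp90aa1 without the plates (-0.11, 0.0118). Of 1661 values of called or smallest-p members with an animal left out, 140 lost their call, and of 799 under other settings 73 lost it, 4 changed sign and 2 gained it. The plate, inhibitory-only and set-by-class settings were chosen after seeing the data. Depth limits Hspa1b, Hspb1 and the pseudogenes, read in few cells, and the 2 to 5 animals per condition limit those contrasts.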

Other observations

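Outside the members, the genes whose level followed that of Hspa1a most closely over the 19 all-cell sums were Osbpl3 (Spearman's rho 0.65), Herc3 (0.62), Spock2 (0.62), Nus1 (0.61) and Scg2 (0.57), of 4963 genes ranked. These sums share set numbers and depth, so the values describe these animals only. Among the members Hsf2 stood highest at 0.42, followed by Dnajc27 at 0.39, and the near copy Hspa1b was at 0.22. Dnajc13, an endosomal J-domain gene, lay lowest at -0.68. The genes named first are the highest of 4963 ranked and the members are far fewer. Their highest values therefore cannot be compared with those of the members.

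From cell to cell within an animal, after thinning to 100000 reads, few members moved together. In excitatory-like neurons the median Spearman's rho over 17 animals was 0.32 for Hsp90aa1 with Hsp90ab1, 0.32 for Hspa8 with Tcp1 and 0.31 for Hspa8 with Hspa5, and in inhibitory-like neurons (15 animals) 0.23 for the HSP90 pair and 0.30 for Hspa8 with Hspa5. Hsp90aa1 with Hspa5 was at -0.21 in excitatory-like neurons. Hspd1 and Hspe1, which share the promoter stretch printed above, were at -0.08 in excitatory-like and 0.11 in inhibitory-like neurons, and Hspa1a with its J-domain partner Dnajb1 at 0.09 and 0.13. Over the animals, in excitatory-like neurons, the HSP90 pair ran from 0.07 to 0.75 and Hspa8 with Tcp1 from 0.07 to 0.61. Hspa8 with Hspa5 ran from -0.11 to 0.59 there. Cells share library, depth and plate, so correlations of this size are not read as a finding. Counts of Hspa1a are sparse besides.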
